A study of Arabidopsis thaliana with 6 samples.

Results

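The domains enriched in monomethylated lysine 27 of histone H3 (H3K27me1) in young leaves of Arabidopsis thaliana were described on their own, as a landscape along the 5 nuclear chromosomes. Every line of the deposited H3K27me1 domain list was taken, 13068 domains out of 25306 in the study's pair of lists, and no domain was left out. The study profiled H3K27me1 by chromatin immunoprecipitation (ChIP) in 2 samples and methylated DNA by immunoprecipitation in 2 further samples, with 2 input samples for the latter, all from wild-type plants of the Columbia accession raised in soil under short days. The ChIP used a commercial antibody against H3K27me1, and no mutant, transgene or treatment was part of the design. A domain is a stretch of the TAIR10 genome build in which the authors found more reads than their calling threshold, and the list gives its position and its number of reads. There is 1 list for the mark and no value per replicate, so no error between plants could be computed and no test between conditions exists. Intervals given here are 95% intervals that treat windows, gaps, genes or domains as independent draws, which neighbours on a chromosome are not, and they cover counting variation along 1 genome only. The list holds positions of DNA, so it cannot show whether the tissue was leaf.

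H3K27me1 is placed in plants by the methyltransferases ATXR5 and ATXR6, which act on the replication-dependent histone variant H3.1. The mark is known from the compacted heterochromatin of the chromocentres, where it helps to keep transposons silent, and its loss in plants without both enzymes lets heterochromatin replicate more than once per cell cycle. In Arabidopsis that heterochromatin lies mainly in the pericentromeres, the repeat-rich and gene-poor sequence on both sides of each centromere, and the chromosome arms hold most of the genes.

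In all, the domains held 12706852 reads and covered 18.8 Mb, 15.8% of the 119 Mb analysed. Pericentromeres, taken here as the gene-poor stretch of each chromosome found from the gene annotation alone, measured 26.9 Mb and held 5902 domains, 45.2% of the list. The arms measured 92.2 Mb and held the other 7166 domains. Pericentromeres carried 219 domains per Mb with a median width of 900 bp (quartiles 600 and 2400 bp), and the arms 77.7 per Mb with a median of 600 bp (300 and 900 bp). The domains of pericentromeres were thus both denser and wider, and 141 of the 148 domains of at least 10 kb lay there. These 148 domains were 1.13% of the list and held 14.0% of its bases and 24.5% of its reads.

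The 5 chromosomes differed in the share of their sequence in domains, from 13.0% on chromosome 1 to 18.4% on chromosome 4, with 17.4% on chromosome 2, 17.3% on chromosome 3 and 14.8% on chromosome 5. Chromosomes 1 and 5, the longest of the 5, had the lowest values, and their pericentromeres of 5.0 and 5.6 Mb were within the range of the other 3, 4.7 to 5.9 Mb. Within each class of sequence the chromosomes lay closer together. Arm coverage ran from 6.48% on chromosome 5 to 6.87% on chromosome 4, a ratio of 1.06. Pericentromeric coverage ran from 44.0% on chromosome 2 to 52.5% on chromosome 4, a ratio of 1.19. The value of chromosome 2 includes 1 stretch of 278.4 kb without a domain, described below. Its coverage and rank without that stretch were not computed, and chromosome 1 was close to it with 45.9%. The share of a chromosome's domains that were pericentromeric varied more, from 36.6% on chromosome 1 to 55.7% on chromosome 2. The widest domain of all, of 122100 bp, lay in the pericentromere of chromosome 5, whereas the pericentromere of chromosome 2 held none above 24300 bp.

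Coverage fell steeply with distance from the centromere, taken as the point of lowest gene coverage, and then levelled off. Domains took up 74.6% of the 300 bp windows in the innermost 0.5 Mb on either side, 60.5% from 0.5 to 1 Mb, 43.1% from 1 to 2 Mb and 19.7% from 2 to 3 Mb. Farther out the share was 8.95% from 3 to 4 Mb, 7.37% from 4 to 5 Mb, 6.72% from 5 to 7.5 Mb, 6.37% from 7.5 to 10 Mb and 5.45% beyond that. Within 1 Mb the share was 67.5% (95% interval 67.0 to 68.0%), and beyond 5 Mb it was 6.06% (5.97 to 6.16%). The number of domains did not follow the same course: it was 226 per Mb in the innermost 0.5 Mb, highest at 267 from 0.5 to 1 Mb, 227 from 1 to 2 Mb, 146 from 2 to 3 Mb and 91.4 from 3 to 4 Mb. Width followed distance all along the inner part, with means of 3294, 2265, 1900, 1350 and 981 bp over the same 5 steps. Domains in the innermost 0.5 Mb were wider on average than those from 0.5 to 1 Mb on each of the 5 chromosomes. They were fewer per Mb on chromosomes 1, 3 and 5, but not on chromosome 2, with 287 against 238 per Mb, or chromosome 4, with 220.0 against 213. A share of 25% of the covered sequence lay within 0.652 Mb of a centromere and 50% within 1.54 Mb, an interval that held 12.9% of the genome, while 90% was reached only at 9.59 Mb.

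**Figure D1:**
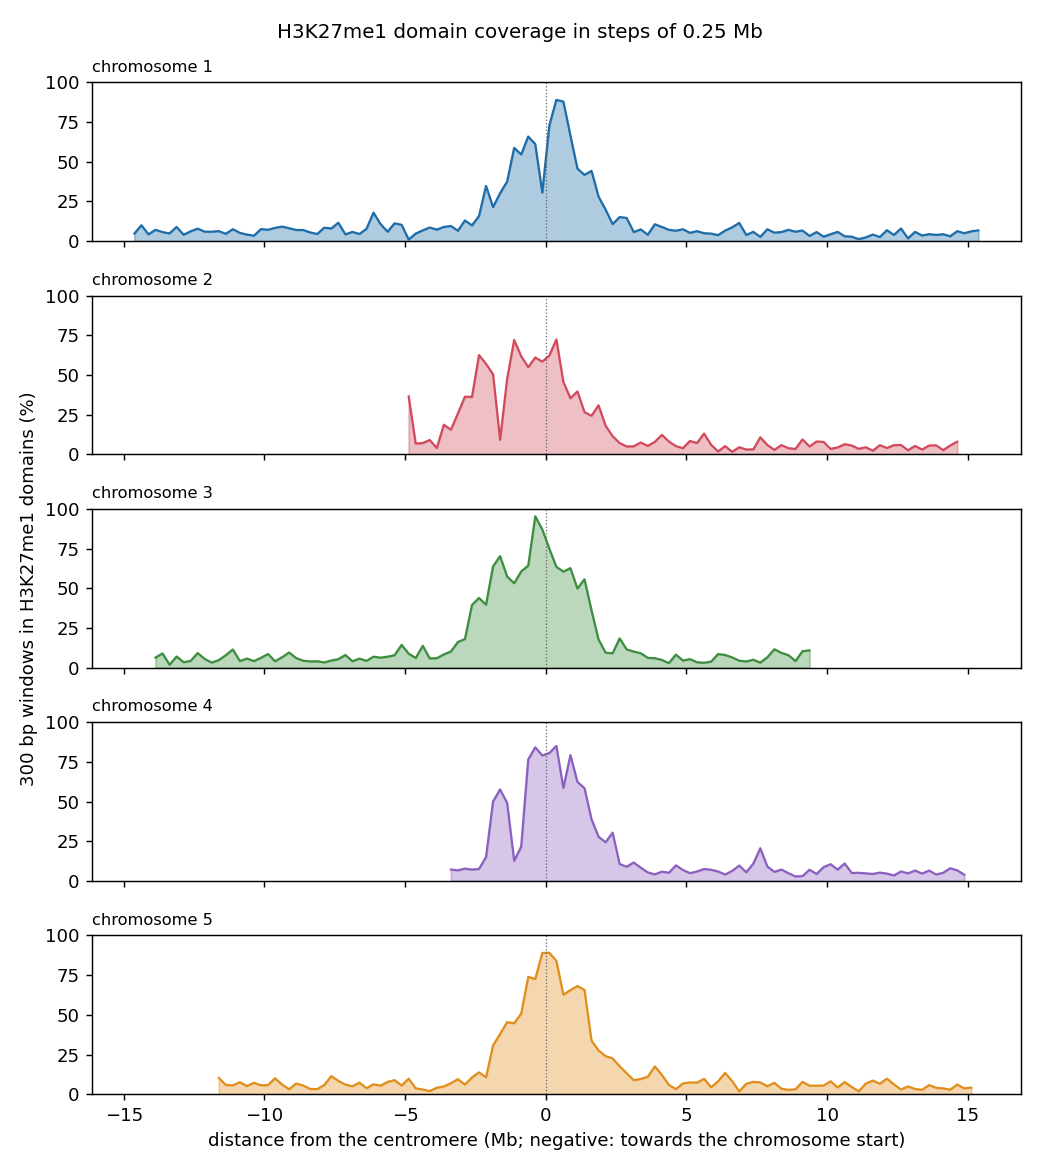
Share of 300 bp windows in H3K27me1 domains (vertical axis, percent) in steps of 0.25 Mb against the distance from the centromere (horizontal axis, Mb, negative towards the chromosome start), 1 panel per chromosome. Each chromosome has a central peak, with a highest step of 72.4% on chromosome 2 and 95.3% on chromosome 3, and a flat low level on the arms. Dips beside the peak stand out on chromosomes 1, 2 and 4, and chromosome 2 rises again at its start.

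The shape of the peak differed between chromosomes, as the plot of coverage along each chromosome shows. Coverage within 1 Mb was 73.4% on chromosome 5, 71.1% on chromosome 3, 70.6% on chromosome 4, 66.1% on chromosome 1 and 56.5% on chromosome 2. Chromosome 1 had its highest values off centre: the step of 0.25 Mb just before the centre held 30.6%, and the step centred 0.375 Mb after it held 89.0%. Within 1 Mb its side towards the chromosome start was covered to 53.1% and its other side to 79.1%. Chromosome 2 had a gap in the profile 1.625 Mb before its centre, where a step held 9.24%, between neighbours of 50.5 and 47.5%. That step overlaps the stretch of 278.4 kb without a domain described below. Chromosome 4 had a separate shoulder on its short arm, with 57.6% at 1.625 Mb before the centre, parted from the main peak by a step with 12.7%. The short arm of chromosome 4 in the Columbia accession is known to carry a heterochromatic knob, and whether the shoulder coincides with it was not tested.

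Coverage dropped below 50% of a chromosome's own value within 1 Mb at distances from 0.6 Mb on the short arm side of chromosome 4 to 2.4 Mb on the side of chromosome 3 towards its start, measured over stretches of 0.5 Mb. The short arm side of chromosome 4 first fell below that level in front of the shoulder and rose again inside it. On chromosome 3 the side towards the start was covered to 61.2% from 1 to 2 Mb and the other side to 39.8%. Beyond 5 Mb the chromosomes were alike in level, from 5.38% on chromosome 2 to 6.50% on chromosome 4, but the 2 arms of chromosome 1 had 7.13% on the side towards its start and 5.05% on the other.

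The centre matters most for chromosome 2, where the point of lowest gene coverage lay 1.35 Mb from the centromere position usually cited for this assembly (0.15 to 0.45 Mb on the others). Around the cited positions, coverage within 1 Mb was 64.9, 51.8, 69.6, 73.8 and 71.9% on chromosomes 1 to 5. Chromosome 2 had the lowest share with either centre, and around the cited position this takes in its stretch of 278.4 kb without a domain. The cited positions were rounded values from general knowledge, so short distances to them are rough. The domain with the most reads per kb lay within 0.05 Mb of the rounded position on chromosomes 1, 2, 4 and 5. On chromosome 3 it lay 0.59 Mb from it.

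Those densest domains differ in what they hold. On chromosome 4 the densest lay at chr4:3948901-3956100, was 7.2 kb wide with 6461 reads per kb and overlapped 1 pseudogene. On chromosome 5 it lay at chr5:11725801-11738700, with 6070 reads per kb over 12.9 kb and no annotated gene. On chromosome 2 it lay at chr2:3611101-3628500, with 5573 reads per kb over 17.4 kb, and on chromosome 1 at chr1:15078001-15086100, with 4481 reads per kb over 8.1 kb. The densest domain of chromosome 3, chr3:14171401-14209200, held 2 annotated ribosomal RNA genes, AT3G41768 and AT3G41979, at 4676 reads per kb over 37.8 kb. Ribosomal RNA genes and centromeric satellites are present in many copies of which the assembly holds a part, and how reads with several matches were treated is not given in the sources used here. The part of this in the read density was not tested.

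Read density, the reads of a domain divided by its width in kb, also fell from the centromere outwards, over a narrower range than coverage. The median domain had 530 reads per kb in pericentromeres (95% interval 525 to 537) and 412 on the arms (410 to 413). By distance the medians were 541, 542 and 534 reads per kb up to 0.5, 1 and 2 Mb, 470 from 2 to 3 Mb, 427 from 3 to 4 Mb and between 407 and 413 farther out. Wider domains tended to be denser, with medians of 596 reads per kb at widths of 1800 to 4800 bp, 723 at 5100 to 9900 bp and 840 at 10 kb or more, against 397 at 600 bp. Domains of 600 bp alone, compared at equal width, had medians of 428, 448 and 436 reads per kb up to 0.5, 1 and 2 Mb, 403 from 2 to 3 Mb and 383 beyond 10 Mb. The fall at equal width was thus smaller than over all widths, and most of it likewise lay within the inner 3 Mb.

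Spearman's rank correlation between distance and read density was -0.37 over all 13068 domains and -0.22 over the 3546 domains of 600 bp, given as a description since the domains share the libraries and neighbouring domains share sequence. The rank correlation of width and density was 0.48 in pericentromeres and -0.06 on the arms. Arm medians were 432 reads per kb at 300 bp, 385 at 600 bp and 396 at 900 to 1500 bp, and then 524 at 1800 to 4800 bp, 766 at 5100 to 9900 bp and 800 at 10 kb or more. Arm domains of 1800 bp or more were thus denser too, while those of 300 bp, which have the highest floor, stood above the next widths. Low densities are set by the calling: no domain of 300 bp had fewer than 114 reads, or 380 reads per kb, and the lowest density was 310 at 600 bp and 287 at 900 to 1500 bp. Medians of narrow domains therefore sit on a floor, and a change below it would not be seen.

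**Figure D2:**
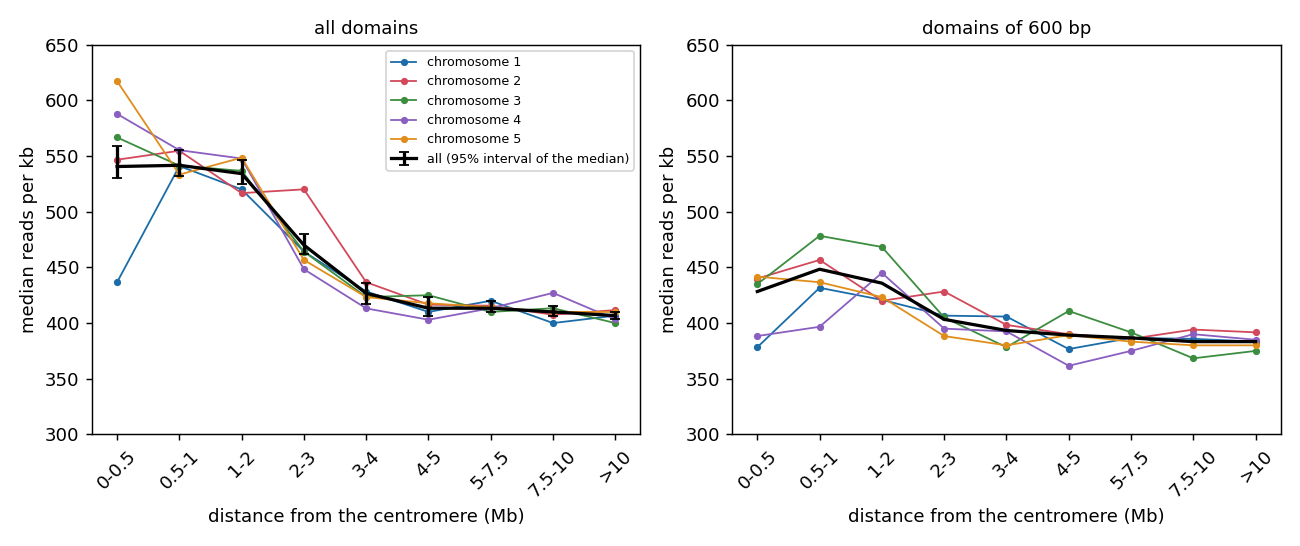
Median reads per kb of H3K27me1 domains (vertical axis, starting at 300) against distance from the centromere in 9 steps (horizontal axis, Mb), for all domains at left and for domains of 600 bp at right. Coloured lines are chromosomes, and the black line is all chromosomes with the 95% interval of the median at left. Beyond 4 Mb the chromosomes lie between 400 and 427 reads per kb at left, and chromosome 1 starts low at 437 in the innermost step.

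On the arms the chromosomes had nearly the same median density, from 410 reads per kb on chromosome 1 to 413 on chromosome 5. In pericentromeres the median was 502 on chromosome 1, 530 on chromosome 3, 536 on chromosome 5, 540 on chromosome 2 and 552 on chromosome 4. Chromosome 1 was low at its centre, where the innermost 0.5 Mb had a median of 437 against 541 from 0.5 to 1 Mb. The other 4 chromosomes had between 547 and 617 in the innermost step. From 2 to 3 Mb chromosome 2 had 520 reads per kb and the others 448 to 464. This was carried by 1 side: from 2 to 5 Mb its side towards the start had a median of 507 and its other side 420.0, beside 408 to 451 on the sides of the other chromosomes. The side towards the start is the one where the cited centromere lies, 1.35 Mb from the centre used here. When all reads in pericentromeric domains are divided by all their bases, chromosome 5 was highest with 817 and chromosome 1 lowest with 667, a ratio in which wide domains weigh more than narrow ones.

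The domains were unevenly spaced. Over the 13063 gaps between neighbours on a chromosome the median was 2100 bp and the mean 7675 bp with an SD of 12856 bp, so that many short gaps stood beside a few long ones. The shortest gap that the list can show is 300 bp, and 3006 gaps (23.0%) had that length. Gaps of at most 3 kb were 56.5% of all (95% interval 55.6 to 57.3%). In pericentromeres the median gap was 600 bp and 81.9% were at most 3 kb, and on the arms the median was 6300 bp and 35.6% were at most 3 kb. Gaps of 20 kb or more were 20.7% of those on the arms and 1.46% of those in pericentromeres.

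**Figure D3:**
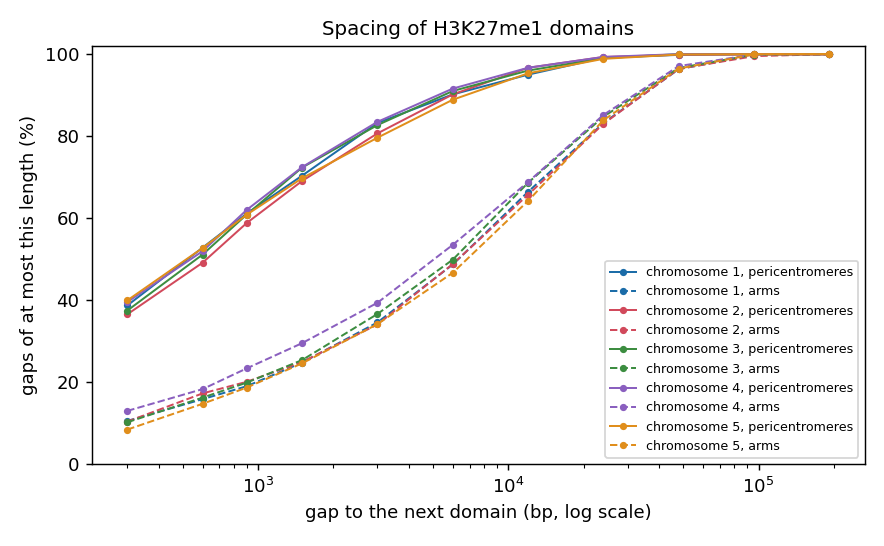
Cumulative share of gaps (vertical axis, percent) of at most a given length (horizontal axis, bp, log scale), with solid lines for pericentromeres and dashed lines for arms, 1 colour per chromosome. The pericentromeric lines start between 36.6 and 39.9% at 300 bp and the arm lines between 8.45 and 13.0%. Chromosome 4 has the shortest gaps on its arms.

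Arm gaps were shortest on chromosome 4. There the median arm gap was 5100 bp and 39.4% of gaps were at most 3 kb (95% interval 36.6 to 42.3%). On chromosome 2 the same share was 34.1% (31.2 to 37.1%), on chromosome 1 it was 34.6% (32.5 to 36.8%) and on chromosome 3 it was 36.7% (34.1 to 39.2%). The intervals of chromosomes 1, 2 and 3 each overlap that of chromosome 4. On chromosome 5 the share was 34.2% (31.9 to 36.5%), and that interval ends just below the one of chromosome 4. Of the 460 gaps of at most 3 kb on the arms of chromosome 4, 38 lay inside 1 cluster of 39 domains. Chromosomes 1, 2, 3 and 5 each had a median arm gap between 6300 and 6900 bp.

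Joining domains separated by at most 3 kb gave 5688 clusters, of which 3485 were single domains. Single domains made up 43.2% of the domains in arm clusters and 6.54% of those in pericentromeric clusters. Clusters of 5 or more held 76.9% of the pericentromeric domains and 8.86% of the arm domains, in 326 and 97 clusters. The cluster with the most domains held 122 and was pericentromeric. The longest pericentromeric cluster spanned 545.1 kb, and it need not be the same one. On the arms, domains in clusters of 5 or more had a median of 430 reads per kb, and single domains 407.

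Neighbouring domains resembled each other in read density only at short range. Across a gap of 300 bp the rank correlation of the densities of neighbours was 0.33 in pericentromeres (2261 pairs) and 0.33 on the arms (744 pairs). For gaps of 600 to 3000 bp it was 0.14 and 0.11, and for longer gaps it was 0.03 and -0.01. Widths behaved likewise, with 0.19 and 0.17 at 300 bp and values near 0 beyond 3 kb. These correlations are descriptions, since each domain enters as the neighbour of its predecessor and of its successor.

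Some of the largest arm clusters are described next with the protein-coding genes they overlap. Of arm sequence 64.7% lies in protein-coding genes, so stretches of this length meet genes in any case. Whether these clusters met more genes than other arm sequence was not tested. With the most domains of any arm cluster, chr4:11046001-11093700 held 39 domains in 47.7 kb, was 63.5% covered and overlapped 21 protein-coding genes from AT4G20520 to AT4G20670 and no pseudogene. Its median density of 580 reads per kb was above the arm median of 412. The cluster at chr5:15662701-15695100, with 11 domains and a median of 1114 reads per kb, overlapped 9 protein-coding genes that include GER2, a germin-like protein gene. At chr1:5522701-5538300, 8 domains lay over WAKL1, WAKL2, WAKL4 and WAKL5, which encode wall-associated kinase-like receptors, and 1 pseudogene. At chr3:4196401-4212300, 10 domains lay over ABCC3, ABCC6 and ABCC7, genes for transporters of the multidrug resistance protein type. At chr4:1155601-1172100, 12 domains lay over BZO2H1, a basic leucine zipper factor, and 3 further genes. Other clusters lay on genes without symbols. Among them, chr1:18818701-18836400 held 9 domains over 5 protein-coding genes and 1 pseudogene. Likewise, chr2:12560101-12579300 held 9 domains over 3 protein-coding genes and 2 pseudogenes.

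One arm cluster was of another kind. At the very start of chromosome 2, chr2:901-69900 held only 8 domains but was 93.0% covered, with a median of 769 reads per kb. Its first domain, chr2:901-38700, was the widest on any arm at 37.8 kb, with 114018 reads or 3016 reads per kb, and held the ribosomal RNA genes AT2G01010 and AT2G01020. Chromosome 2 is known to begin with a nucleolus organizer region, an array of ribosomal RNA genes. This end brought the reads per kb of all arm domain bases on chromosome 2 to 610, against 482 to 510 on the other chromosomes. Reads with several matches could matter here as at the densest domains, and their part was not tested.

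In windows of 100 kb, the arms held a median of 7 domains and 5.70% covered sequence, and 3 of the 919 windows held no domain. The 13 arm windows with at least 20% covered included 6 within 1 Mb of a pericentromere and 7 farther out. The start of chromosome 2 had 66.0%, the gene group on chromosome 4 had 39.6% with 45 domains, the germin-like genes on chromosome 5 had 30.6%, and a window near the pericentromere of chromosome 3 had 29.7%. The other windows had up to 25.2%. In pericentromeres 224 of 269 windows reached 20%, with a median of 50.2% and a highest value of 99.7%.

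The 2 widest arm domains of each chromosome lay mostly over pseudogenes, a class that in the RefSeq annotation of this species holds transposon genes among others. On chromosome 1, chr1:9676501-9690600 was 14.1 kb wide and overlapped 5 pseudogenes, and chr1:7353001-7365300 was 12.3 kb wide at 1748 reads per kb and overlapped 2. On chromosome 2, after the domain at its start, chr2:10591801-10605900 was 14.1 kb wide and overlapped 6 pseudogenes. Chromosome 3 had none above 6.9 kb, its widest at chr3:16589401-16596300 and chr3:16691101-16698000, the latter over 2 protein-coding genes and 1 pseudogene. On chromosome 4, chr4:13624501-13632000 was 7.5 kb wide at 1051 reads per kb and chr4:8900101-8907300 was 7.2 kb wide, over 2 and 1 pseudogenes. On chromosome 5, chr5:15233701-15244800 was 11.1 kb wide over AT5G38190 and 1 pseudogene, and chr5:17596801-17605800 was 9 kb wide over 1 pseudogene.

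The longest arm stretch without a domain on each chromosome is described next with the genes it held. Most annotated arm genes are protein-coding: the arms as a whole held 25017, beside 706 pseudogenes and 546 transcribed pseudogenes. Whether these stretches differ in gene content from other arm sequence was not tested. On chromosome 1, chr1:20092201-20251500 was free of domains for 159.3 kb and held 48 protein-coding genes, among them PME1, a pectin methylesterase gene, RAP2.12, a factor of the response to low oxygen, and ATG12A, a gene of autophagy. On chromosome 2, chr2:16545301-16689300 was free for 144 kb and held RCA, which encodes Rubisco activase, P5CS1 of proline synthesis and COI1, the F-box protein of the jasmonate receptor. On chromosome 3, chr3:5760601-5868000 was free for 107.4 kb and held 33 protein-coding genes with LPD1, a plastid lipoamide dehydrogenase gene. On chromosome 4, chr4:15761701-15876000 was free for 114.3 kb and held CCD8 of strigolactone synthesis, the kinase gene AUR1 and the homeobox gene HB-8. On chromosome 5, chr5:6717001-6834300 was free for 117.3 kb and held PI, the floral homeotic gene PISTILLATA, IPT9 and RAN2 among 39 protein-coding genes. These 5 stretches together held 3 pseudogenes.

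Inside pericentromeres the longest stretches were shorter, apart from chromosome 2. They measured 56.1 kb on chromosome 1, 41.4 kb on chromosome 3 with TDF1, a regulator of the tapetum, and 42.6 kb on chromosome 4 with TT8, a regulator of flavonoid synthesis. On chromosome 5 the stretch of 103.5 kb reached to the first domain of the arm and held ASF1B, a histone chaperone gene, and NF-YC12. On chromosome 2, chr2:3238801-3517200 was free for 278.4 kb and held 94 protein-coding genes, 45 pseudogenes and 23 transfer RNA genes. The next longest stretch in that pericentromere was 51.9 kb. Chromosome 2 of Columbia is known to carry a large insertion of mitochondrial DNA near its centromere. Its limits were not looked up, and the treatment of reads that match both genomes is not given in the sources used here, so its part in this stretch was not tested.

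Most arm domains lay inside genes, as does most arm sequence, of which 64.7% lies in protein-coding genes. Of the 7166 arm domains, 5304 (74.0%, 95% interval 73.0 to 75.0%) lay between the annotated start and end of a protein-coding gene, 7.93% crossed the edge of one and 1.37% held a whole one. By bases, domains inside genes made up 59.9% of the arm sequence in domains. This leaves out gene bases in domains that cross a gene edge or hold a whole gene, so it cannot be set against the 64.7%. A further 9.24% overlapped a pseudogene and no protein-coding gene, and 6.41% overlapped no annotated gene. In pericentromeres 52.8% overlapped a pseudogene without a protein-coding gene, 29.2% no annotated gene, and 7.22% lay inside a protein-coding gene. The 9.24% over pseudogenes held 21.8% of the arm bases in domains, since these domains were wider.

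**Figure D4:**
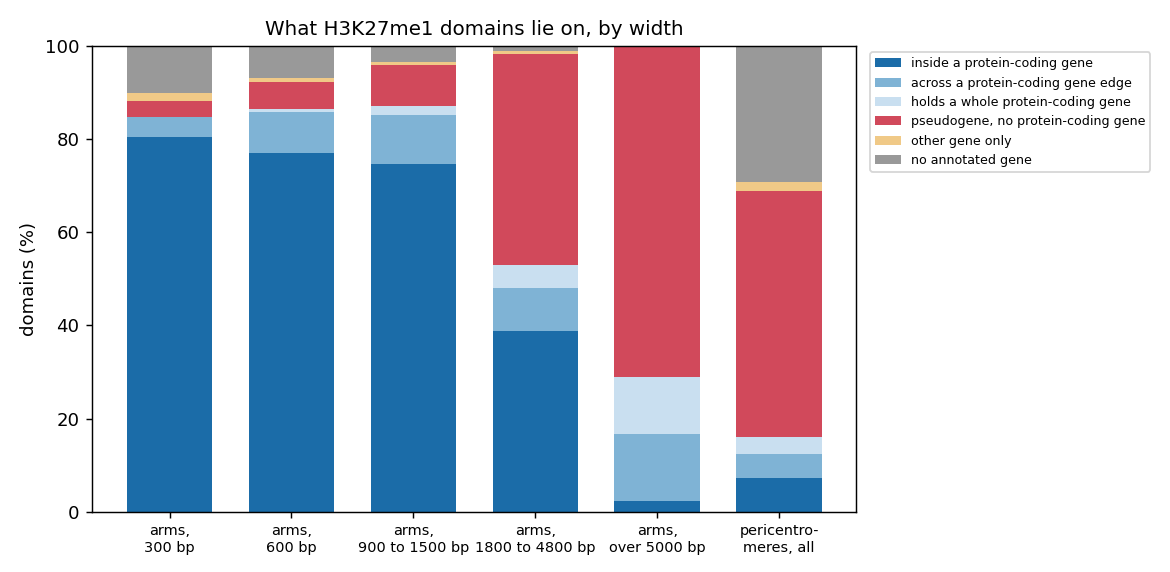
Share of H3K27me1 domains (vertical axis, percent) by the annotation they lie on, in 5 width classes of arm domains and in all pericentromeric domains (horizontal axis). The share inside a protein-coding gene falls from 80.5% at 300 bp to 2.22% over 5000 bp, and the share over pseudogenes rises from 3.47 to 71.1%.

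Width separated both kinds of arm domain, as the plot by width class shows. At 300, 600 and 900 to 1500 bp the share inside a protein-coding gene was 80.5, 77.1 and 74.6%, at 1800 to 4800 bp it was 38.9%, and of the 90 domains over 5000 bp it was 2.22%. Over the same classes the share on pseudogenes was 3.47, 5.61, 8.76, 45.2 and 71.1%. A domain can lie inside a gene only where the gene is the longer of both. Read density differed as well: arm domains inside genes had a median of 403 reads per kb and those over pseudogenes 557. At 600 bp the medians were 380 and 444, and at 1800 to 4800 bp they were 421 and 617. The median of 524 over all arm domains of 1800 to 4800 bp thus mixes both kinds.

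Of the 5260 arm genes with any base in a domain, 84.2% met 1 domain, 101 met 3 or more, and the highest number was 9. Domains inside an arm gene took a median of 23.5% of the gene. Their distance from the nearer gene edge had a median of 353 bp, and 10.7% of them came within 100 bp of an edge. The gene table gives no strand or exons, so that starts and ends of genes could not be told apart.

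A protein-coding gene was counted as covered when at least 50% of its length lay in domains. This held for 2090 of 27444 genes, 7.62%, for 1535 of 25017 arm genes, 6.14%, and for 555 of 2427 pericentromeric genes, 22.9%. Covered genes were the rule nowhere: even within 0.5 Mb of the centromere the share was 46.8% of 109 genes. It was 36.7% from 0.5 to 1 Mb, 23.9% from 1 to 2 Mb, 12.8% from 2 to 3 Mb and 7.03% from 3 to 4 Mb, and stayed between 5.71 and 6.21% farther out. The median length of covered genes was 1562 bp against 2109 bp for all arm genes, and 948 bp against 1665 bp in pericentromeres. The rule itself favours short genes, since a narrow domain can fill 50% of a gene only where the gene is short. Genes covered over their full length numbered 119 on the arms and 244 in pericentromeres.

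By chromosome, arm genes were covered most often on chromosome 4, with 7.38% (95% interval 6.56 to 8.26%), and least often on chromosome 1, with 5.55% (5.01 to 6.12%). The 278 covered arm genes of chromosome 4 include the 19 from AT4G20535 to AT4G20670. In pericentromeres the highest share was on chromosome 3, with 27.7% (23.8 to 31.9%), and the lowest on chromosome 5, with 20.4% (17.0 to 24.2%). No test over samples was possible for these differences, and neighbouring genes are not independent.

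Part of the covered genes stood next to each other. Counting neighbours in the order of protein-coding genes, 400 of the 1535 covered arm genes (26.1%) and 64.3% of the covered pericentromeric genes had a covered neighbour. The other 1135 covered arm genes had none. A covered neighbour is more likely where more genes are covered, and the shares over all genes were 6.14% on the arms and 22.9% in pericentromeres. Whether neighbours went beyond these shares was not tested. The longest run on an arm held 19 genes, AT4G20535 to AT4G20670. The next held 11 genes on chromosome 5, from GLP6 through GER2 to AT5G39200, both of the named ones germin-like protein genes. A run of 4 on chromosome 1 held WAK4, WAK5 and WAK3, genes for wall-associated kinases that link the cell wall to the cytoplasm. The longest pericentromeric run held 9 genes, from AT5G36480 to AT5G36659.

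The named arm genes with the most covered bases were long genes with domains inside their bodies. The rule took, for each chromosome, the 4 arm genes and the 2 pericentromeric genes with a symbol that had the most bases in domains among covered genes, so their coverage was chosen and is given as a description. In 18 of the 20 arm genes every domain lay inside the gene, 6 had 1 domain and 11 had 2. Their domains had between 347 and 560 reads per kb, with a median of 410, close to the arm median of 412.

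Of the 20, 6 were transporter genes of the ABC family. The shortest of the 20 measured 3281 bp, and of the 2762 arm genes with a symbol that were at least as long, 76 (2.75%) had an ABC symbol. The 20 were taken from covered genes only. Of the 46 covered genes in that longer set, 7 (15.2%) had an ABC symbol. On chromosome 1, ABCB11 had 1 domain of 3900 bp over 70.5% of its length and its neighbour ABCB12 1 domain of 3600 bp over 72.0%, at 373 and 372 reads per kb. ABCG40, which encodes an importer of abscisic acid, had 4 domains over 55.7% at 347 reads per kb, the lowest density of the group. ABCC4 on chromosome 2 was covered to 70.6%, ABCC14 on chromosome 3 to 53.1% by 4 domains, and ABCB3 on chromosome 4 to 56.5% by 3 domains. Both B-type neighbours on chromosome 1 thus had a single long domain, while ABCG40 and ABCC14 had several short ones.

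Other enzyme genes among the 20 are described next. CSLD5 and CSLD1, cellulose synthase-like genes, were covered to 79.4 and 78.1%. IRX3, the cellulose synthase subunit CESA7 of secondary walls, had 1 domain of 3000 bp over 61.6% at 446 reads per kb. SUS1, a sucrose synthase gene, was covered to 52.1%, STS, a stachyose synthase gene, to 77.6%, PPC3, a phosphoenolpyruvate carboxylase gene, to 63.8%, and AK3, an aspartate kinase gene, to 58.1%. None of these was covered beyond its annotated ends.

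Receptor kinase genes were EMS1, which acts in the tapetum of anthers and was covered to 82.0% by 2 domains, GSO1, a receptor of the Casparian strip pathway, covered to 75.9%, and BRL2, a relative of the brassinosteroid receptor, covered to 73.0% by 1 domain. RDR2, an RNA-dependent RNA polymerase of the small RNA pathway that directs DNA methylation, had 1 domain of 3000 bp over 71.7% at 413 reads per kb. MEF7, a factor of mitochondrial RNA editing, was covered to 79.9% by 1 domain, and SPIK, a potassium channel of pollen, to 54.3% by 2. SEOa, a phloem protein gene, had the highest coverage of the 20 with 90.6% and also the highest density, 560 reads per kb. One of its domains ran 28 bp past the edge of the gene.

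The 10 pericentromeric genes ranged more widely in density, from 357 to 997 reads per kb. MEE38, named for an embryo arrest mutant, lay whole inside a domain of 3300 bp at 997 reads per kb, and TOC75-I, a relative of the chloroplast import channel gene, lay whole inside one of 7500 bp at 684. HA6, a plasma membrane proton pump gene, was covered to 57.2% at 691 reads per kb. DAYSLEEPER, a gene derived from a transposase, was covered to 57.6% by 1 domain of 1800 bp at 426, and CINV2, a cytosolic invertase gene, to 52.0% at 357. The remaining 5 were ABCC13 with 63.8%, PME7 with 61.3%, CRK25 with 74.3%, PRK1 with 61.3% and CDC20.5 with 88.6%. Some of these genes thus lay inside domains wider than themselves, and others held separate narrow domains as the arm genes did.

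Of 21 gene families defined by symbol, with 718 members, 29 members were covered, and 11 families had at least 1 covered member. The share touched by any domain and the share covered did not run in parallel. Over all protein-coding genes 22.3% were touched and 7.62% covered. Family members all have symbols, and of the 10374 protein-coding genes with a symbol 21.4% were touched and 4.65% covered, close to the 4.04% of the family members that were covered. The cation/proton exchangers (CHX) had 18 of 22 members touched and 5 covered. The cysteine-rich receptor-like kinases (CRK, where the symbol also holds kinases related to calcium-dependent kinases) had 22 of 40 touched and 1 covered, and the receptor-like proteins (RLP) 22 of 52 touched and 1 covered. The small peptide genes CLE and RALFL had no member touched, out of 30 and 32. Their median lengths were 834 and 544 bp, against 2078 bp for all protein-coding genes. The medians of CHX, CRK and RLP were 3024.5, 2958 and 2808.5 bp, and a longer gene has more room to be touched. The part of gene length in the touched shares was not tested.

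**Figure D5:**
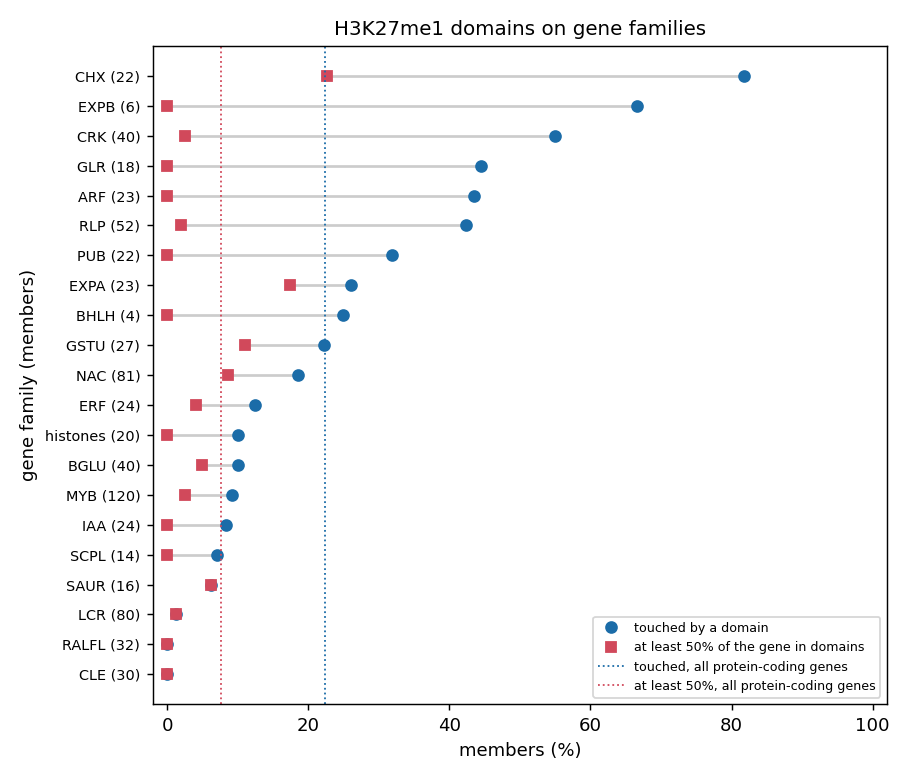
Share of the members of 21 gene families (horizontal axis, percent) touched by an H3K27me1 domain (circles) and covered over at least 50% of their length (squares), with the number of members in brackets. Dotted lines mark the shares of all protein-coding genes, 22.3% touched and 7.62% covered, against 21.4 and 4.65% of genes with a symbol. CHX is farthest right for touched members with 81.8% and for covered members with 22.7%.

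In the CHX family, which exchanges cations for protons at membranes and is known largely from pollen, the median member had 32.6% of its length in domains. CHX14 was covered to 87.0% by 1 domain of 2700 bp, CHX15 to 72.6%, CHX16 to 60.0%, CHX26 to 56.7% and CHX4 to 52.5%. The other 13 touched members had between 6.45 and 45.5%. Touched members lay on all 5 chromosomes, with CHX4, CHX12 and CHX11 side by side in the pericentromere of chromosome 3 at 52.5, 35.8 and 30.0%.

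Among the expansins, which loosen cell walls, EXPA17 was covered to 94.3%, EXPA16 to 80.1%, EXPA20 to 73.9% and EXPA4 to 62.7%, while EXPA15 had 48.2% and EXPA14 14.2%. The EXPB genes had 4 of 6 members touched, at 16.7 to 38.6%, and none covered. The share of touched members was 26.1% for EXPA, 6 of 23, and 66.7% for EXPB.

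Among transcription factor families, NAC genes had 15 of 81 touched and 7 covered, 8.64% beside 7.62% of all protein-coding genes: NAC064 to 79.3%, NAC103, a factor of the stress response of the endoplasmic reticulum, to 77.1%, NAC005 to 70.6%, NAC077 to 69.8%, NAC063 to 67.9%, NAC094 to 60.8% and NAC023 to 57.5%. MYB genes had 11 of 120 touched and 3 covered, with MYB120, which acts in pollen tubes, to 93.5%, MYB61 to 66.2% and MYB305 to 61.1%. ERF genes had 3 of 24 touched and ERF53 covered to 67.0%. Auxin response factors (ARF) had 10 of 23 touched, 5 of them in the pericentromere of chromosome 1, and none covered, with the highest values in ARF19 at 33.0% and ARF14 at 29.3%. The IAA repressors of auxin signalling had 2 of 24 touched, IAA32 at 46.8% and IAA13 at 9.79%.

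In the remaining families few or no members were covered. Tau glutathione transferases had 6 of 27 touched and GSTU25, GSTU14 and GSTU9 covered to 81.7, 80.7 and 54.5%. Beta-glucosidases had 4 of 40 touched and BGLU12 and BGLU13 covered to 74.7 and 69.1%. Only 1 member each was covered among the CRK, RLP, LCR and SAUR genes. LCR85, at 74.9%, lay on an arm. CRK25 at 74.3%, RLP5 at 100% and SAUR75 at 91.6% lay in pericentromeres, where 22.9% of all protein-coding genes were covered. The other CRK members touched had between 9.03 and 35.1%, each by 1 domain, and 13 of the 22 touched lay 7.77 to 8.64 Mb from the centre of chromosome 4. Histone genes had 2 of 20 touched, HTA11 of the H2A.Z type at 18.9% and HTA6 of the heterochromatic H2A.W type at 34.6%. The PUB, GLR, SCPL and BHLH genes had 7 of 22, 8 of 18, 1 of 14 and 1 of 4 touched and none covered.

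Members of tandem groups are similar in sequence, so reads could be shared among CRK, RLP or germin-like neighbours. How such reads were placed is not given in the sources used here, and its part in these values was not tested.

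Pseudogenes were covered far more often than protein-coding genes: 83.7% of 3917 had at least 50% of their length in domains, 87.2% in pericentromeres and 67.6% on the arms. Pseudogenes annotated as transcribed were covered at 24.4% of 926, and long non-coding RNA genes at 7.93% of 3480. Of 326 microRNA genes 31 were covered, 16 of them among the 45 in pericentromeres (35.6%) and 15 among the 281 on the arms (5.34%). Domains took up 47.4% of all pericentromeric sequence and 6.60% of all arm sequence, so the microRNA shares were not above these. Transfer RNA genes stood at the other end, with 2 of 625 covered and 0 of 580 on the arms (upper 95% bound 0.634%). All 4 annotated ribosomal RNA genes lay whole inside domains, the pair at the start of chromosome 2 and the pair in the densest domain of chromosome 3. Transfer RNA and microRNA genes are mostly shorter than the 300 bp step of the list, so for them covered and touched are nearly the same.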

How the data were processed

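Arabidopsis thaliana Col-0 young leaves gave 2 H3K27me1 ChIP samples, and the H3K27me1 domain list served both. Per the submitters' processing notes, reads were handled with Bowtie (alignment) and SICER (calling of broad domains) on TAIR10. The sources used here do not give versions, thresholds, replicate pooling, input use or the treatment of reads with several matches. The deposited list gives whole-number read counts per domain, which the authors did not normalize, as far as the values show. All edges lie on a grid of 300 bp. The counts were used to describe domains within the list only, and their sum is not a library depth. Unused columns of sample values numbered 0.

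The members, gene families, naming rule and alternatives were chosen with earlier results of these data known. Protein-coding coverage from the RefSeq gene table (assembly TAIR10.1, 37899 nuclear genes) was taken in windows of 100 kb and averaged over 11 windows. The lowest point was the centromere, and the run around it under 0.7 of the chromosome's median was the pericentromere. Sliding pseudogenes against domains in steps up to 5000 bp gave the best overlap at 0 bp on all 5 chromosomes. Coordinates of that table are not printed. It lists no strand, exons or sequence, and no genome sequence was used.

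Reads per kb are the reads of a domain divided by its width. Intervals are exact binomial (Clopper-Pearson) or, for medians, from order statistics. No test was made. Named were the 4 arm and 2 pericentromeric covered genes with symbols and the most covered bases per chromosome, all covered members of the families shown (1 further family of the rule is not reported here), the 2 widest arm domains and the longest stretches without a domain. Clusters, runs of genes, the densest domains and the examples taken from them, and touched family members, were named after their values were seen. Alternatives changed the centromere, the pericentromere, the domains counted, the joining of domains, the share of a gene required and the chromosomes used. Gene coverage was tested on simulated data, where 200 of 200 planted genes were recovered. Python 3.11.15, numpy 2.4.6, pandas 2.3.3, scipy 1.17.1 and matplotlib 3.10.9 were used.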

Additional observations from a re-analysis of the deposited data

How the results depend on the processing

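Of 56 alternative values, 29 moved by less than the 95% interval or, for the count of genes, by less than 1.5 times, and 27 moved by more. With domains of at least 1000 bp only, coverage was 61.3% within 1 Mb and 2.68% beyond 5 Mb, gaps of at most 3 kb were 50.4%, the medians were 642 and 440 reads per kb within 1 Mb and beyond 5 Mb, arm domains inside a gene were 56.5%, and 1005 genes were covered. With the denser part of the list, split at the median reads per kb, the values were 60.3%, 2.49%, 53.5%, 58.4% inside a gene and 978 genes. With domains of 600 bp only, the medians were 438 and 385 reads per kb. Joining domains parted by 300 bp first gave 43.5% of gaps at most 3 kb. A pericentromere of 2.5 Mb on each side gave 71.0% inside a gene. Any overlap gave 6132 genes and at least 80% gave 786. Centromere positions usually cited for the assembly, rounded values from general knowledge and an alternative chosen after the data were seen, gave 66.4% within 1 Mb. Leaving out each chromosome in turn gave 66.1 to 70.3% within 1 Mb, 5.99 to 6.17% beyond 5 Mb, 55.7 to 57.8% of gaps, 537 to 556 and 410 to 411 reads per kb, and 73.2 to 74.8% inside a gene. Under each alternative run for them (other domains counted, other centromeres, chromosomes left out), coverage within 1 Mb was above that beyond 5 Mb, and so was the median read density. The causes were not tested.

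No paired analysis was possible because the list holds no value per replicate, and replicates could not be left out for the same reason. Domain counts and narrow widths depend on the 300 bp step and on the calling threshold, and the list says nothing of sequence below that threshold. The depth of the libraries is not used here.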
